A study of Mus musculus with 2 samples.

Results

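The genes described here are 10 interferon-inducible GTPases of the mouse: the guanylate-binding proteins (GBPs) Gbp2, Gbp2b, Gbp3, Gbp4, Gbp5 and Gbp7, and the immunity-related GTPases (IRGs) Irgm1, Igtp, Iigp1 and Ifi47. They were listed by gene symbol and not by a rule on their values, though earlier results of these data were known. Each matched 1 of the 32285 genes in the count matrix. The data are UMI counts (unique RNA molecules per gene and cell) from droplet sequencing of CD45+ cells, the leukocytes, sorted from enzymatically digested full-thickness mouse skin. One condition was skin given DPCP (diphenylcyclopropenone, a contact sensitizer), taken on day 2, and the other was control skin, labelled day 0. Each condition was 1 tagged sample, and both were pooled into 1 droplet library. Strain, sex, age, the vehicle and the number of mice behind each tag are not given in the sources used here. There are therefore no replicates and no test between conditions. All intervals are 95% intervals that cover counting error only.

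GBPs and IRGs are GTPases that interferon, above all interferon-gamma, induces. In infected cells they gather on vacuoles that hold bacteria or parasites and disrupt them, and several GBPs open the way to inflammasome activation. Irgm1 and Igtp (also called Irgm3) belong to the regulatory IRGs, which sit on the cell's own membranes and keep the effector IRGs, among them Iigp1 (Irga6) and Ifi47 (Irgd), inactive there. Gbp2b is the mouse gene also known as Gbp1.

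The genes sit in few places of the genome (GENCODE M21 annotation, mm10). On the plus strand of chromosome 3, within 144.0 kb, lie Gbp5 (142493978 to 142522344), Gbp7 (142530342 to 142550149), Gbp3 (142560026 to 142573209), Gbp2b (142594847 to 142619179) and Gbp2 (142620602 to 142638008). Chromosome 11 holds Irgm1 (48861968 to 48871683, minus strand), Ifi47 (49076587 to 49096974, plus) and Igtp (58199556 to 58207591, plus). Gbp4 lies on chromosome 5 (105115767 to 105139586, minus) and Iigp1 on chromosome 18 (60376027 to 60392634, plus). The UMI counts are of whole genes and do not tell exons apart. Reads of neighbouring family members may be shared: the annotated span of Gbp4 overlaps Gbp8 and Gbp9, that of Igtp overlaps Irgm2, that of Ifi47 overlaps Olfr56 and that of Gbp7 overlaps Gm43802, all on the same strand, so counts of these 4 genes are less certain.

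After barcodes with fewer than 200 genes or with over 10% of UMIs from mitochondrial genes were dropped, there were 7588 DPCP cells with 53121083 UMIs and 4970 control cells with 51852466 UMIs. The median cell held 4728.5 UMIs in DPCP and 8803 in control. A UMI of Ptprc, which encodes CD45, was found in 96.3% of DPCP and 98.8% of control cells, and markers of keratinocytes and fibroblasts had a median of 0 in every class compared. No cell barcode was shared by both conditions. Cells were put into classes by marker genes, and the 8 classes with at least 50 cells per condition were compared. These were neutrophil-like (4321 DPCP and 120 control cells), monocyte-like (760 DPCP and 249 control), macrophage-like (271 DPCP and 576 control), conventional dendritic cell type 2-like (125 DPCP and 492 control), mature dendritic cell-like (102 DPCP and 56 control), Langerhans cell-like (67 DPCP and 55 control), T cell-like (104 DPCP and 112 control) and epidermal gamma-delta T cell-like (123 DPCP and 153 control). No gate took 1161 DPCP and 2993 control cells, and 479 DPCP and 52 control cells passed 2 gates and were left out of the classes. Levels are given as CPM, a gene's UMIs scaled to 1000000 UMIs over the summed cells. A gene with at least 50 UMIs over both conditions was called higher or lower in DPCP where its CPM ratio was at least 1.5-fold in either direction and the exact interval of the ratio excluded 1.

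The summed level of the neutrophil genes S100a8 and S100a9, which was 88071 CPM in DPCP and 58842 CPM in control neutrophil-like cells, lay between 1004 and 1766 CPM in the 7 other classes in DPCP and between 433 and 598 CPM in control. The part of neutrophil RNA, free or carried, in the values of the other classes was tested only by leaving out the cells rich in these 2 genes. Only in Langerhans cell-like cells did that change the count of calls by over 1.5 times.

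Promoters are shown because these genes are grouped by shared induction, and the letters that interferon-activated factors are known to bind can be read in them. In the 250 bases before the RefSeq start sites (build GRCm38.p6), 2 motifs were searched on both strands: the core of the interferon-stimulated response element (ISRE, GAAA, then any 2 bases, then GAAA) and the gamma-activated site (GAS, TTC, then any 3 bases, then GAA). Of the 10 genes, 8 had a promoter entry, Gbp4 and Iigp1 being the others. These 8 genes had 9 entries, Gbp3 having a second start. Matches below are counted by gene, while the background shares are of single promoters. An ISRE core match was found for 7 of these 8 genes (Gbp2, Gbp2b, Gbp3, Gbp5, Gbp7, Igtp and Irgm1), against 2.98% of 32851 promoters. A GAS match was found for 3 of them (Gbp5, Gbp7 and Igtp), against 7.02% of promoters, and the same 3 held both motifs, as did 0.332% of all promoters. The windows of Ifi47 and of the second Gbp3 start held neither. The 5 promoters below belong to the 4 genes called higher in neutrophil-like cells of DPCP skin and to Gbp2b, the gene with the lowest ratio over all cells. They are written 5′ to 3′ in the direction of transcription, with motif matches in capitals:
Gbp2 (chr3:142620413-142620662, plus strand): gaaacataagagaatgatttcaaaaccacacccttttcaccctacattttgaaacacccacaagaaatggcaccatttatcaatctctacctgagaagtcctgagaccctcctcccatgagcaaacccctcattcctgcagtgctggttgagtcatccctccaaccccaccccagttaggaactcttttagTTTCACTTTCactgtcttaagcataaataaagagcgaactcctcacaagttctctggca
Gbp5 (chr3:142496684-142496933, plus strand): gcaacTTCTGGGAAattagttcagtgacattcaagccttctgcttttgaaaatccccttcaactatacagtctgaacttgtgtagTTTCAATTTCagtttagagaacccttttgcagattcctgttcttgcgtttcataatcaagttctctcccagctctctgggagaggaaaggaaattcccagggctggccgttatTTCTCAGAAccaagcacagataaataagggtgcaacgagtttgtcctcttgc
Igtp (chr11:58199306-58199555, plus strand): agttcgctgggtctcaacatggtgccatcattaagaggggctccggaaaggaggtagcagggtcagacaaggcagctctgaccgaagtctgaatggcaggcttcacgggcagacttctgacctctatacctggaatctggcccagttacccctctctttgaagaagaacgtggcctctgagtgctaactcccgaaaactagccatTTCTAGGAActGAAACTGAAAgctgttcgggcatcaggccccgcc
Irgm1 (chr11:48871421-48871670, minus strand): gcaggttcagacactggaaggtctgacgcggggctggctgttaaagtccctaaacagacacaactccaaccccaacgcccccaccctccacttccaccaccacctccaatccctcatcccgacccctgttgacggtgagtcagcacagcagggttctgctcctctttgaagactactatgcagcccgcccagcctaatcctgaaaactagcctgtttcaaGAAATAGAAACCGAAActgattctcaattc
Gbp2b (chr3:142594597-142594846, plus strand): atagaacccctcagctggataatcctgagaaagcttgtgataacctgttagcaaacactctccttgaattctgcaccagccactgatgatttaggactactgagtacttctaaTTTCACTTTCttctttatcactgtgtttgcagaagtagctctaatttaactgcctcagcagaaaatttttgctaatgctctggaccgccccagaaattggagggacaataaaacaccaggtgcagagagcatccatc

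**Figure D1:**
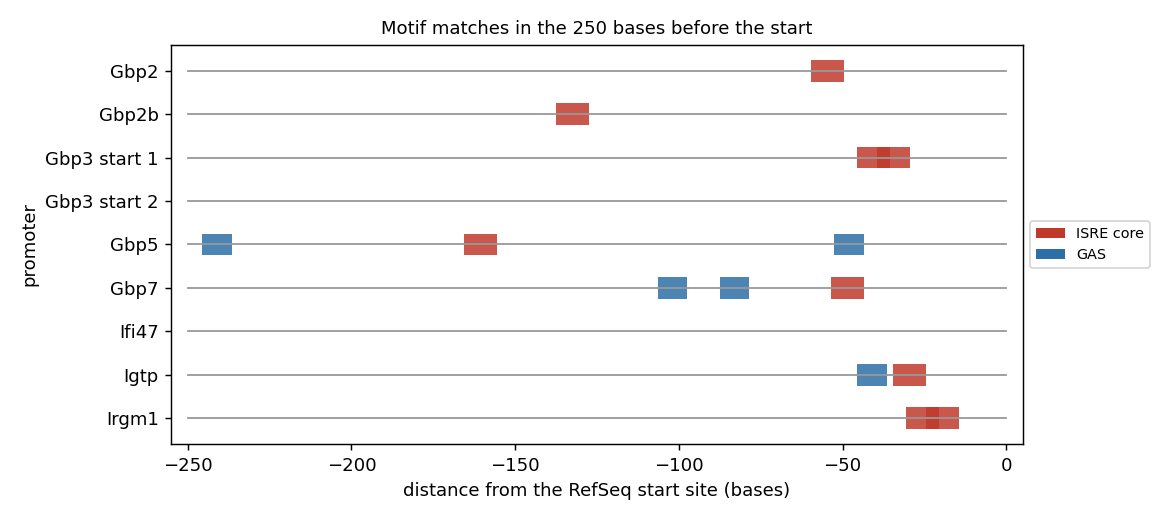
Positions of ISRE core (red) and GAS (blue) matches in the 250 bases before the RefSeq start site of each promoter entry (horizontal axis, distance from the start in bases). The ISRE matches of Gbp2, the first Gbp3 start, Gbp7, Igtp and Irgm1 lie from 59 to 15 bases before the start, while those of Gbp2b and Gbp5 lie farther upstream and Ifi47 has none.

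Over all kept cells, the genes did not move as one group. Gbp5, which promotes NLRP3 inflammasome assembly in mouse macrophages, reached 62.6 CPM in DPCP against 11.7 CPM in control, a ratio of 5.33 (interval 4.89 to 5.82). Gbp2, which targets vacuoles and bacteria for lysis, reached 146 CPM in DPCP against 49.7 CPM in control, a ratio of 2.94 (2.82 to 3.08). Igtp was also higher, at 38.0 CPM in DPCP and 18.7 CPM in control (ratio 2.04).

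Lower over all cells were Gbp2b, at 1.37 CPM in DPCP and 11.8 CPM in control (ratio 0.116, 0.0901 to 0.149), Gbp3, at 30.1 CPM in DPCP and 50.7 CPM in control (ratio 0.593), and the effector Iigp1, at 7.15 CPM in DPCP and 18.5 CPM in control (ratio 0.386). The other 4 genes stayed within 1.5-fold: Irgm1 (ratio 1.16), Gbp7 (0.912), Gbp4 (0.886) and Ifi47 (0.732). Thus 3 of 10 genes were called higher, as were 20.7% of the 14377 genes measured, and 3 were called lower, as were 25.2% of all. These shares are near the background. In such sums over all cells, more cells of a type and more RNA per cell cannot be told apart.

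The cells that held the UMIs differed between conditions. In DPCP, neutrophil-like cells held 63.7% of Gbp2 UMIs and 64.0% of Gbp5 UMIs, against 39.1% of the UMIs of all genes. In control, neutrophil-like cells held 0.466% of Gbp2 and 0.493% of Gbp5 UMIs. Macrophage-like cells held more of the Iigp1 UMIs than any other gated class in both conditions, 34.7% in DPCP and 43.3% in control, and 24.7% of Gbp2b UMIs in DPCP against 38.9% in control. Of the UMIs of all genes these cells held 5.49% in DPCP and 11.8% in control. Gbp4 was spread differently. Epidermal gamma-delta T cell-like cells held 17.2% of its UMIs in DPCP and 10.8% in control. Of the UMIs of all genes they held 1.95% in DPCP and 3.10% in control. Neutrophil-like cells held 16.7% of the Gbp4 UMIs in DPCP. Cells in 2 gates held 20.7% of Gbp4 and 22.6% of Iigp1 UMIs in DPCP, against 10.03% of the UMIs of all genes. Cells in no gate held 32.0% to 64.9% of each gene's UMIs in control, against 62.97% of the UMIs of all genes, and 1254 and 908 of these 2993 control cells sat in 2 cell clusters, led by Lpl, Ear2 and Retnla and by Thsd4 and Tenm4.

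**Figure D2:**
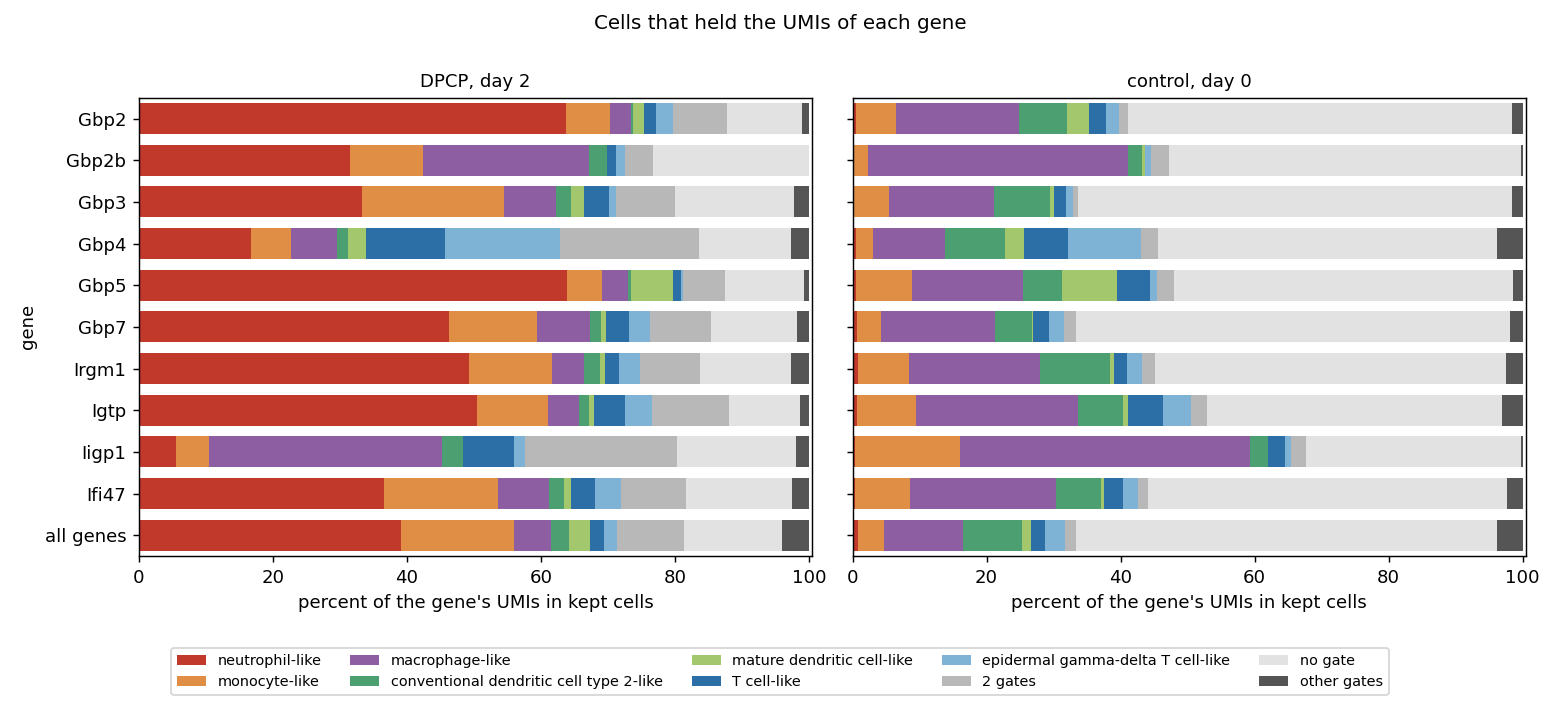
Share of each gene's UMIs (horizontal axis, percent) held by each marker-gated class in DPCP day 2 (left) and control day 0 (right), with all genes in the bottom bar. Neutrophil-like cells (red) hold 63.7% of Gbp2 and 64.0% of Gbp5 UMIs in DPCP, and under 1% of either in control, where cells in no gate (light grey) hold the larger part.

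In neutrophil-like cells, the GBPs with the highest ratios were Gbp5 and Gbp2. Gbp2 stood at 238 CPM (interval 232 to 245) in DPCP, from 4948 UMIs, and at 27.2 CPM (14.1 to 47.6) in control, from 12 UMIs, 8.74 times the control level (5.0 to 16.9). Gbp5 stood at 102 CPM in DPCP and, from only 3 UMIs, at 6.81 CPM in control, with a ratio of 15.04 (5.14 to 73.0). For each gene the DPCP and control intervals did not meet.

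Both regulatory IRGs were also higher in neutrophil-like cells. Igtp had 49.0 CPM in DPCP and 15.9 CPM in control (ratio 3.08, 1.49 to 7.68), and Irgm1 had 82.4 CPM in DPCP and 49.9 CPM in control (ratio 1.65, 1.09 to 2.64). Of the rest, Gbp3 (ratio 1.88), Ifi47 (1.40), Gbp7 (1.37) and Gbp4 (0.657) had intervals that included 1. Gbp2b (23 UMIs in DPCP and 1 in control) and Iigp1 (21 in DPCP and 3 in control) fell under 50 UMIs. In all, 4 of the 8 genes measured were called higher, against 8.61% of the 10197 genes measured in this class, and none was called lower, against 21.1% of all genes. The minimum of 50 UMIs had removed Iigp1, with a ratio of 0.148 (0.0443 to 0.777), and with a minimum of 10 UMIs 1 gene was lower, so the absence of lower calls is no result. The median log2 ratio was 0.82 over the 8 genes and -0.33 over all genes. Since the control side rests on 120 cells with 3 to 30 UMIs of each of these 8 genes, they passed the minimum of 50 UMIs through DPCP alone. In 1801 of the 4321 DPCP cells, but in none of the control cells, less than 80% of the tag UMIs were of the cell's own tag, and the same number of genes, 4, was called higher without them.

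TMM scaling between the summed profiles, an alternative that assumes most genes do not change, shifted neutrophil-like values by -0.42 on the log2 scale. Relative to that shift the log2 ratios were 4.33 for Gbp5, 3.55 for Gbp2, 2.05 for Igtp, 1.14 for Irgm1, 1.33 for Gbp3, 0.91 for Ifi47 and 0.88 for Gbp7, so that 7 genes were called higher. The shift was within 0.1 in the other classes.

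DPCP neutrophil-like cells were not uniform. Cells were clustered without these genes and without the other interferon lists, and 5 clusters held most of the class. Gbp5 was at 227 CPM in cluster 0 (led by Slc7a11, Il1rn and Csf1), 118 CPM in cluster 6 (led by Spp1, Cxcl2 and Ccl4) and 138 CPM in cluster 10 (led by Retnlg, S100a9 and S100a8). It was at 13.1 CPM in cluster 2 (led by Pip5k1b and Csf3r) and 4.43 CPM in cluster 9 (led by Retnlg, Wfdc21 and S100a8). Gbp2 kept the same division, with 378, 297 and 307 CPM in clusters 0, 6 and 10, and 120 and 91.9 CPM in clusters 2 and 9. Irgm1 stood at 104 to 128 CPM in the first 3 clusters, against 27.7 to 38.7 CPM in the other 2, and Igtp at 58.9 to 76.2 CPM against 20.3 to 25.7 CPM. Gbp7 differed least, at 97.7 to 112 CPM against 76.8 to 88.3 CPM.

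Clusters 0, 6 and 10 held no control cell, and 88 of the 120 control neutrophil-like cells sat in cluster 2. Within cluster 2, Gbp2 was at 120 CPM in DPCP and 8.23 CPM in control, from 2 control UMIs (ratio 14.6, 4.02 to 121). Only Gbp2 was called there: the calls of Gbp5 (ratio 3.18, 0.546 to 128), Igtp (2.08, 0.692 to 10.2) and Irgm1 (1.05, 0.537 to 2.33) were lost. In cluster 2, Irgm1 had 38.7 CPM in DPCP and 37.0 CPM in control. A further 15 control cells of the class sat in cluster 11, led by Chil3 and Vcan, with 7 Gbp2 UMIs. Gbp2 there was at 71.4 CPM (56.3 to 89.2) in DPCP and 49.5 CPM (19.9 to 102) in control.

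**Figure D3:**
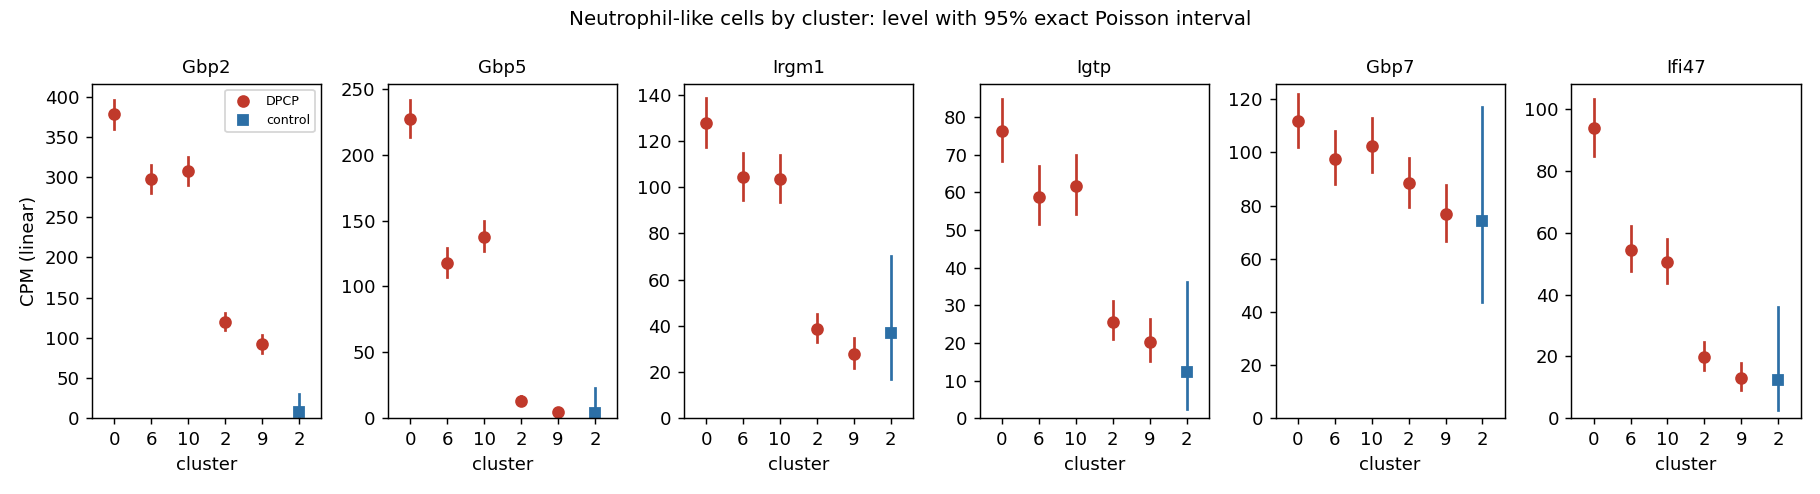
Level (CPM, linear axis from 0) of 6 of the genes in neutrophil-like cells of 5 clusters in DPCP (red points, clusters 0, 6, 10, 2 and 9) and of cluster 2 in control (blue squares), with 95% exact Poisson intervals as lines. Gbp2, Gbp5, Irgm1, Igtp and Ifi47 are high in DPCP clusters 0, 6 and 10 and low in clusters 2 and 9, while the Gbp7 values lie closer together.

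Counted per cell, a larger share of DPCP than of control neutrophil-like cells held UMIs of 2 or more of the genes. This share rises with the level of each single gene, and whether the genes occurred together beyond that was not tested. After each cell was thinned to 1000 UMIs, to remove the effect of depth, 9.38% (8.52% to 10.3%) of 4244 DPCP cells held UMIs of 2 or more of the 10 genes, against 0 of 108 control cells (exact Clopper-Pearson upper bound 3.36%). Without thinning these shares were 28.6% in DPCP and 13.3% in control, at median depths of 3853 UMIs in DPCP and 2862 UMIs in control. A Gbp2 UMI was found after thinning in 13.5% (12.5% to 14.6%) of DPCP and 0.926% (0.0234% to 5.05%) of control neutrophil-like cells. Without thinning it was found in 30.7% of DPCP and 8.33% of control cells. In DPCP, the neutrophil-like share could not be ranked against those of gamma-delta T cell-like and T cell-like cells. Their thinned Gbp2 shares were 14.6% (18 of 123, interval 8.91% to 22.1%) and 14.4% (15 of 104, 8.30% to 22.7%). Both intervals held the neutrophil-like share. The lowest value among the 8 classes was 3.39% (4 of 118 cells, 0.931% to 8.45%), in conventional dendritic cell type 2-like cells with a median of 12429 UMIs.

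In epidermal gamma-delta T cell-like cells, which resemble the resident T cells of mouse epidermis, all 6 genes with at least 50 UMIs were higher in DPCP. Among the GBPs, Gbp2 was at 192 CPM (166 to 220) in DPCP and 33.0 CPM (24.7 to 43.2) in control, a ratio of 5.81 (4.27 to 8.02). Gbp4 was at 185 CPM in DPCP and 82.8 CPM in control (ratio 2.23, 1.78 to 2.81), and Gbp7 at 125 CPM in DPCP and 59.8 CPM in control (ratio 2.09). Among the IRGs, the regulators Igtp and Irgm1 had ratios of 3.07 (2.09 to 4.59) and 2.71 (1.97 to 3.76), with 78.4 CPM in DPCP against 25.5 CPM in control for Igtp and 106 CPM in DPCP against 39.2 CPM in control for Irgm1. The effector Ifi47 was at 102 CPM in DPCP and 51.0 CPM in control (ratio 1.99, 1.48 to 2.69).

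The 6 of 6 calls stand against 12.3% of the 7365 genes measured in this class for higher and 8.23% for lower, and the median log2 ratio was 1.3 over the 6 genes and 0.08 over all genes. Gbp3 (17 UMIs in DPCP and 29 in control), Gbp5 (9 in DPCP and 7 in control), Iigp1 (6 in DPCP and 9 in control) and Gbp2b (1 in DPCP and 6 in control) fell under 50 UMIs. Cluster membership was alike, with 95.1% of DPCP and 97.4% of control cells of the class in cluster 8. In 91 of the 123 DPCP cells, but in none of the 153 control cells, less than 80% of the tag UMIs were of the cell's own tag. With the 32 purer DPCP cells alone, 5 of the calls held, and the log2 ratio was 1.53 for Gbp2 and 0.29 for Gbp4, which lost its call.

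In T cell-like cells, 2 of 9 genes measured were called higher, against 10.5% of the 6602 genes measured, and none was called lower, against 8.85%. Gbp2 was at 124 CPM (104 to 147) in DPCP and 61.1 CPM (46.9 to 78.4) in control, a ratio of 2.03 (1.49 to 2.79), and Igtp at 85.6 CPM in DPCP and 50.3 CPM in control, a ratio of 1.70 (1.20 to 2.45). Gbp4 lay just under the limit with 121 CPM in DPCP and 80.9 CPM in control (ratio 1.49, 1.12 to 1.99). Ratios of the other 6 genes measured lay between 0.871 (Ifi47) and 1.23 (Gbp7), and Gbp2b had 1 UMI in DPCP and 0 in control. Some control values leaned on single cells of the 112. The highest cell for each gene held 79.2% of the control Iigp1 UMIs, 36.7% of Gbp5 and 32.3% of Gbp2.

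The T cell-like class had 32 of 104 DPCP and 19 of 112 control cells in cluster 8, where the gamma-delta T cell-like cells lay. In 75 of the 104 DPCP cells, less than 80% of the tag UMIs were of the cell's own tag. With the 29 purer DPCP cells, 4 genes were called higher, and with classes taken from clusters (each cell given the class of most gated cells in its cluster) the log2 ratio of Gbp2 turned to -0.02 (interval -0.51 to 0.46).

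In Langerhans cell-like cells, gated on Cd207, Epcam and Gjb2, only 3 genes reached 50 UMIs. Gbp2 was at 52.2 CPM (40.0 to 66.9) in DPCP and 15.1 CPM (7.26 to 27.8) in control, a ratio of 3.45 (1.75 to 7.54), but 1 of the 67 DPCP cells held 41.9% of its DPCP UMIs. Irgm1 was at 37.0 CPM in DPCP and 18.2 CPM in control (ratio 2.04, 1.06 to 4.24), and Gbp7 at 42.1 CPM in DPCP and 39.4 CPM in control (ratio 1.07). The 2 of 3 calls for higher stand against 20.2% of the 6000 genes measured, and the 0 for lower against 17.1%.

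Among the genes under 50 UMIs in Langerhans cell-like cells, Gbp5 had 15 UMIs in DPCP and 1 in control. The summed level of the 8 macrophage markers in these cells had a median of 29.2 per 10000 UMIs in DPCP and 6.52 in control. Their part in these values was not tested. Without the 7 DPCP cells rich in S100a8 and S100a9 UMIs, the log2 ratio of Irgm1 was 0.66, with an interval that included 0, and 1 call was left.

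In monocyte-like cells, gated on Chil3 and Vcan, 6 of 9 genes measured were called lower in DPCP, against 9.28% of the 9518 genes measured, and none was called higher, against 8.49%. The effector IRGs had the lowest ratios. Iigp1 was at 2.12 CPM (1.28 to 3.31) in DPCP, from 19 UMIs, and at 75.6 CPM (64.0 to 88.6) in control, from 151 UMIs, a ratio of 0.0280 (0.0164 to 0.0453). Ifi47 was at 51.2 CPM in DPCP and 146 CPM in control (ratio 0.350, 0.302 to 0.407).

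Both regulators were lower as well, Irgm1 at 48.4 CPM in DPCP and 112 CPM in control (ratio 0.434, 0.368 to 0.512) and Igtp at 23.97 CPM in DPCP and 42.5 CPM in control (ratio 0.564, 0.436 to 0.733). Of the GBPs, Gbp4 (7.36 CPM in DPCP and 16.0 CPM in control) and Gbp3 (37.9 CPM in DPCP and 68.6 CPM in control) were called lower. Gbp2 (ratio 0.727), Gbp5 (0.756) and Gbp7 (0.765) stayed within 1.5-fold, and Gbp2b had 8 UMIs in DPCP and 13 in control. The median log2 ratio was -0.85 over the 9 genes and -0.03 over all genes. All Iigp1 UMIs of control monocyte-like cells lay in 25 or fewer of the 249 cells, and 1 cell held 24.5% of them.

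The monocyte-like class drew on different clusters in each condition. Cluster 4, led by Chil3 and Vcan, held 76.4% of DPCP and 49.0% of control cells of the class, and cluster 5, led by Ly6c2 and Ly6a, held 36 DPCP cells and 87 control cells (34.9% of control). Of the 151 control Iigp1 UMIs, 142 came from cluster 5. Within cluster 4, Iigp1 had 3 UMIs in 581 DPCP cells and 1 UMI in 122 control cells.

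Within cluster 4, 2 genes were called lower, Ifi47 at 48.1 CPM in DPCP and 95.8 CPM in control (ratio 0.502, 0.398 to 0.640) and Irgm1 at 47.8 CPM in DPCP and 78.9 CPM in control (ratio 0.606, 0.471 to 0.789). Gbp5 was called higher there, at 17.3 CPM in DPCP and 7.37 CPM in control (ratio 2.35, 1.11 to 5.96). The lower calls of Gbp3, Gbp4, Igtp and Iigp1 did not hold within cluster 4. In cluster 5 alone, Ifi47 was at 115 CPM in DPCP and 232 CPM in control, and Iigp1 at 34.1 CPM in DPCP and 174 CPM in control. When each cell took the class of most gated cells in its cluster, the class was made of clusters 4, 14 and 17. Cluster 17 had 129 DPCP cells and 1 control cell. Cluster 5, with 87 control cells of the gated class, then counted as macrophage-like, so its control UMIs left the class. Under this setting Gbp3, Gbp4 and Iigp1 turned to positive log2 ratios of 0.07, 1.35 and 4.02.

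**Figure D4:**
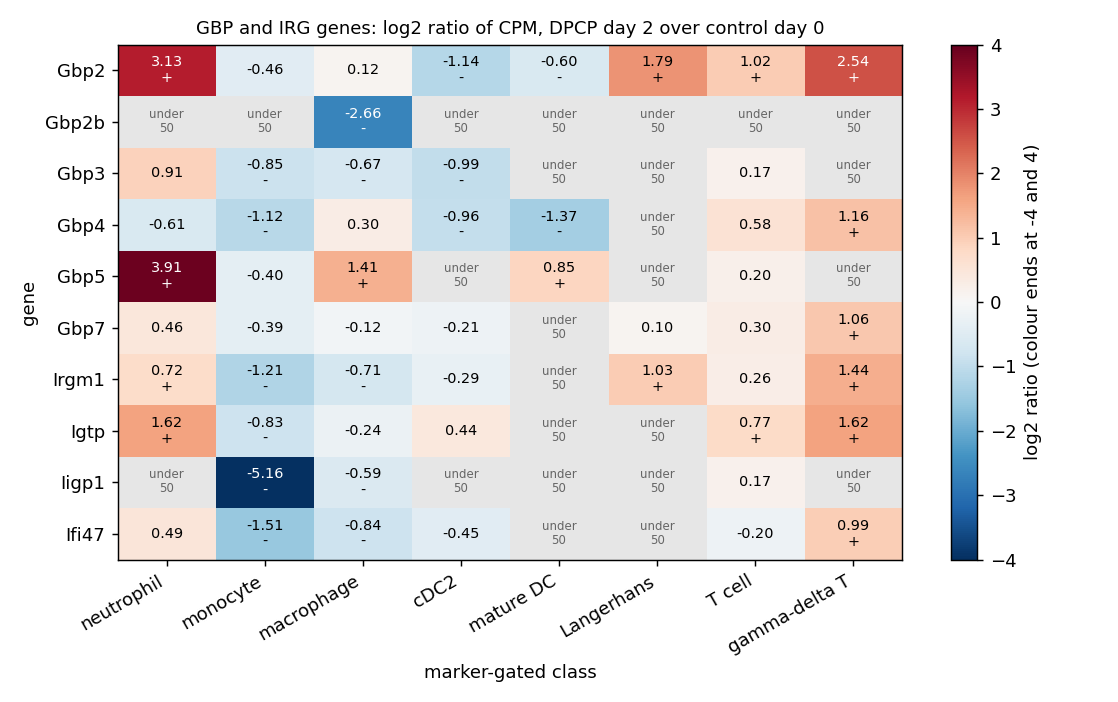
Log2 ratio of CPM, DPCP over control, for each gene (rows) in each class (columns), with the value printed, "+" for a gene called higher, "-" for one called lower, and grey for genes under 50 summed UMIs. Positive values fill the gamma-delta T cell-like column and negative ones the monocyte-like column, while Gbp2 and Gbp5 in neutrophil-like cells reach 3.13 and 3.91.

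Macrophage-like cells, gated on the complement genes C1qa, C1qb and C1qc, were the only class in which all 10 genes reached 50 UMIs. There 1 gene was called higher, against 10.4% of the 9595 genes measured, and 5 were called lower, against 6.38%. Gbp5 was the higher one, at 43.9 CPM (36.6 to 52.2) in DPCP and 16.5 CPM (13.4 to 20.1) in control, a ratio of 2.66 (2.03 to 3.49). Gbp2b had the lowest ratio, at 6.17 CPM (3.66 to 9.75) in DPCP and 38.9 CPM (34.1 to 44.2) in control, a ratio of 0.159 (0.0925 to 0.256). Gbp3 was also lower, at 42.5 CPM in DPCP and 67.5 CPM in control (ratio 0.630, 0.511 to 0.772).

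Of the IRGs in macrophage-like cells, Ifi47 was at 71.7 CPM in DPCP and 129 CPM in control (ratio 0.557, 0.476 to 0.650), Irgm1 at 56.9 CPM in DPCP and 93.1 CPM in control (ratio 0.611, 0.511 to 0.728), and Iigp1 at 45.3 CPM in DPCP and 68.0 CPM in control (ratio 0.666, 0.543 to 0.812). These 3 were called lower, and for each of them the intervals of the levels did not meet. Gbp4 (ratio 1.23), Gbp2 (1.09), Gbp7 (0.922) and Igtp (0.847) were not called. The median log2 ratio was -0.41 over the 10 genes and 0.06 over all genes. In DPCP, 1 cell held 40.2% of the Iigp1 UMIs of the class, and 1 cell held 31.2% of its Gbp5 UMIs.

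The macrophage-like class drew on partly different clusters in each condition, and its values differed by cluster. Cluster 16, led by Mfge8, Pcdh7 and the Langerhans cell gene Cd207 among others, held 34 of the 271 DPCP cells (12.5%), and cluster 22 held 36 of the 576 control cells (6.25%). In cluster 5, which held 87 DPCP and 223 control cells of the class, 6 genes were called lower: Gbp2 at 45.0 CPM in DPCP and 135 CPM in control (ratio 0.334, 0.236 to 0.461), Iigp1 at 22.5 CPM in DPCP and 154 CPM in control (ratio 0.146, 0.0895 to 0.227), and Gbp3, Irgm1, Igtp and Ifi47 with ratios of 0.404 to 0.504. Gbp5 was called higher in cluster 5, at 41.8 CPM in DPCP and 22.3 CPM in control (ratio 1.88, 1.21 to 2.89). Gbp2b in cluster 5 was at 3.22 CPM in DPCP and 18.5 CPM in control (ratio 0.174, 0.035 to 0.543). It was not called there, because its 3 UMIs in DPCP and 44 in control together fell under the minimum count. In cluster 13, led by C1qa, Pf4 and Folr2, with 73 DPCP and 188 control cells, Gbp2 was called higher, at 87.0 CPM in DPCP and 48.1 CPM in control (ratio 1.81, 1.32 to 2.48). Gbp2b was the 1 gene called lower in cluster 13, at 8.23 CPM in DPCP and 66.3 CPM in control (ratio 0.124, 0.0490 to 0.263). In that cluster the Gbp5 log2 ratio was -0.63 (interval -1.81 to 0.41), so its call for the whole class did not hold there.

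In conventional dendritic cell type 2-like cells, 3 of 7 genes measured were called lower, against 7.09% of the 8605 genes measured, and none higher, against 7.51%. Gbp2 was at 18.6 CPM (12.2 to 27.0) in DPCP and 40.9 CPM (35.2 to 47.2) in control (ratio 0.454, 0.291 to 0.682), Gbp3 at 24.1 CPM in DPCP and 47.7 CPM in control (ratio 0.505) and Gbp4 at 12.4 CPM in DPCP and 24.1 CPM in control (ratio 0.514). Igtp, Gbp7, Irgm1 and Ifi47 had ratios of 1.35, 0.865, 0.816 and 0.734 and were not called. Gbp2b, Gbp5 and Iigp1 fell under 50 UMIs. A stricter gate left none of the 3 calls, and the macrophage gene Cd163 was among the 10 leading genes of this class.

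In mature dendritic cell-like cells, gated on genes such as Ccr7 and Fscn1, 3 genes reached 50 UMIs. Gbp5 was called higher, at 128 CPM (111 to 146) in DPCP and 70.7 CPM (52.5 to 93.3) in control (ratio 1.80, 1.32 to 2.51), against 16.2% of the 5807 genes measured. Gbp4 was called lower, at 18.7 CPM in DPCP and 48.1 CPM in control (ratio 0.388, 0.231 to 0.650), and so was Gbp2, at 79.4 CPM in DPCP and 120 CPM in control (ratio 0.661, 0.499 to 0.878), against 9.13% for lower. For Gbp2, 1 of the 102 DPCP cells held 34.8% of the DPCP UMIs. Iigp1 had no UMI in either condition, with upper interval limits of 2.22 CPM in DPCP and 5.22 CPM in control. Gbp2b had 0 UMIs in DPCP and 3 in control. Gbp3, Gbp7, Irgm1, Igtp and Ifi47 had 16 to 32 UMIs in DPCP and 5 to 17 in control.

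**Figure D5:**
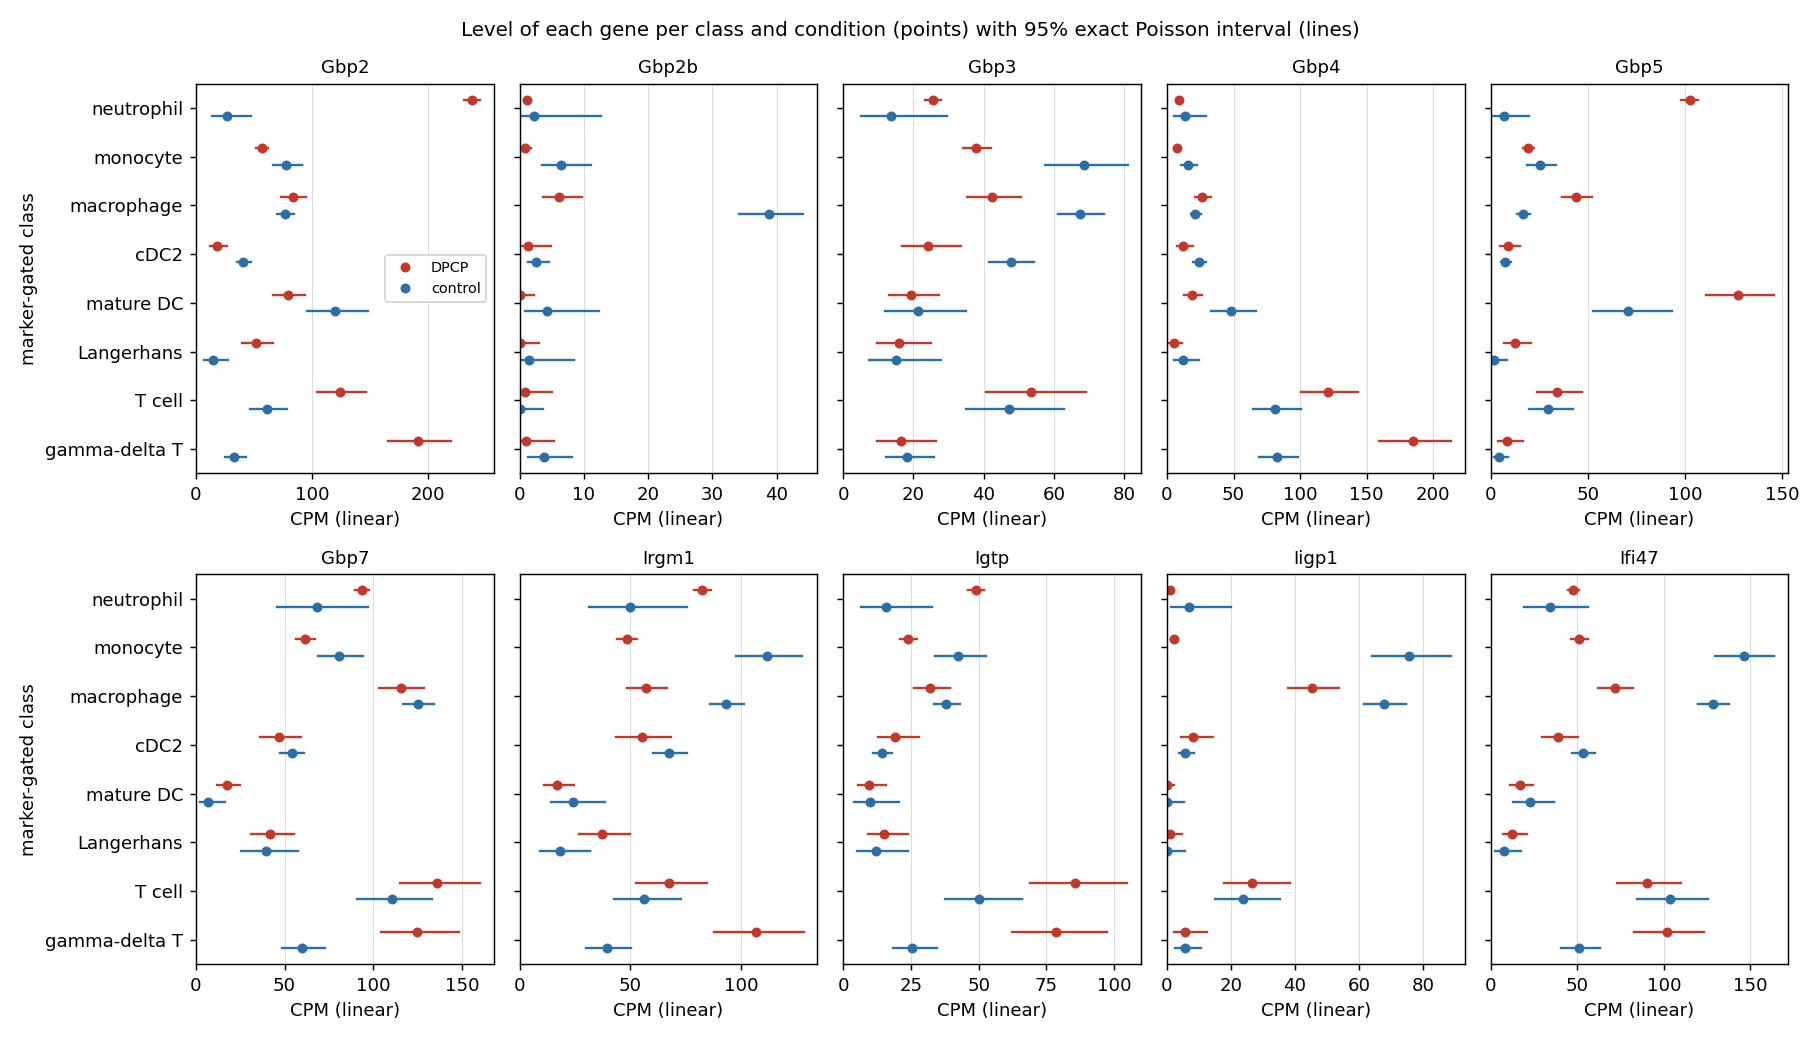
Level of each gene (CPM, linear axis from 0) in the 8 classes, with DPCP (red) above control (blue) and 95% exact Poisson intervals as lines. For Gbp2 the order of the classes differs between conditions, with neutrophil-like cells highest in DPCP and mature dendritic cell-like cells highest in control, while Gbp4 is highest in gamma-delta T cell-like and T cell-like cells in both.

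The order of the classes differed from gene to gene. Gbp2 in DPCP was highest in neutrophil-like cells (238 CPM), followed by gamma-delta T cell-like (192 CPM) and T cell-like cells (124 CPM), with intervals that did not meet, and lowest in conventional dendritic cell type 2-like cells (18.6 CPM). In control it was highest in mature dendritic cell-like cells (120 CPM) and lowest in Langerhans cell-like cells (15.1 CPM), and monocyte-like (78.1 CPM) and macrophage-like cells (76.9 CPM) had overlapping intervals. The Langerhans cell-like interval (7.26 to 27.8) also overlapped those of neutrophil-like (14.1 to 47.6) and gamma-delta T cell-like cells (24.7 to 43.2). Gbp5 was highest in mature dendritic cell-like cells in both conditions, at 128 CPM in DPCP and 70.7 CPM in control. Gbp4 was highest in gamma-delta T cell-like cells, at 185 CPM in DPCP and 82.8 CPM in control, where the T cell-like level of 80.9 CPM did not differ beyond counting error.

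Gbp7, whose product is known to act with the phagocyte oxidase in mouse macrophages, varied least between conditions: 6 classes gave no call, 1 gave a higher call and 1 held under 50 UMIs. Gbp2 was called in 6 of the 8 classes, in 4 of them higher and in 2 lower. Gbp5 was called higher in 3 classes and lower in none. Gbp3 was called lower in 3 classes, Iigp1 in 2 and Gbp2b in 1, and none of these 3 was called higher in any class.

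Whole clusters, gated and ungated cells together, were also compared. Cluster 5, led by Ly6c2, Ly6a and Siglec1, counted 154 DPCP and 715 control cells, and 463 of these 869 cells were gated. Its DPCP cells had 31.3 CPM of Iigp1, 105 CPM of Ifi47 and 83.3 CPM of Irgm1, against 122, 193 and 148 CPM in its control cells. Cluster 17, led by Mmp12, Pdpn and Gpnmb, had 129 DPCP cells and 1 control cell and so allows no comparison. Its DPCP cells held 127 CPM of Iigp1, 122 CPM of Gbp5 and 117 CPM of Gbp2. In the large clusters 1 and 3, which held 1423 and 972 control cells, the Gbp2 levels in DPCP (45.6 and 28.0 CPM) were close to those in control (47.4 and 31.0 CPM), with ratios of 0.963 and 0.904.

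The rest of the GBP and IRG family was counted in the same way. Of 11 further family symbols, 10 were in the matrix. In gamma-delta T cell-like cells, 4 of the 5 measured were higher (Tgtp2, Tgtp1, Gvin1 and Irgm2), against 12.3% of all genes in that class, with Tgtp2 at 56.1 CPM in DPCP and 8.71 CPM in control. In monocyte-like cells, 7 of 7 were lower, against 9.28%, and Gm4951 was at 0.446 CPM in DPCP and 45.5 CPM in control. In macrophage-like cells, 3 of 7 were lower, against 6.38%, and none higher: Gbp6 (5.14 CPM in DPCP and 25.5 CPM in control), Tgtp2 (5.83 CPM in DPCP and 24.99 CPM in control) and Gm4951 (21.2 CPM in DPCP and 80.1 CPM in control). In neutrophil-like cells, Gbp9 and Gvin1 were lower, 2 of 7 against a background of 21.1%, and none was higher.

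RNA of the ligand interferon-gamma was rare in these data, and whether it induced the genes here was not tested. Ifng, which encodes interferon-gamma, had 15 UMIs in DPCP and 24 in control T cell-like cells, or 13.8 CPM (7.73 to 22.8) in DPCP and 23.7 CPM (15.2 to 35.2) in control. The 14 DPCP and 19 control NK cell-like cells held 12 UMIs, or 102 CPM (52.8 to 179), in DPCP and 10 UMIs, or 37.2 CPM (17.8 to 68.4), in control, and were too few to compare. Gamma-delta T cell-like cells held 4 Ifng UMIs in DPCP and 0 in control, where 3 counts would be 1.87 CPM. The ligand list of 9 genes held interferon genes and also the interleukin genes Il12b, Il18 and Il27. Of these 9, 2 reached 50 UMIs in macrophage-like cells, Il18 and Il27, and neither was called. No interferon gene of the list was measurable there. Ifng had 1 UMI in DPCP and 3 in control, and Ifnb1, Ifna2, Ifna4, Ifnl2 and Ifnl3 had 0 in both.

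Of the 17 genes of interferon receptors and signalling, all measured in macrophage-like cells, 4 were called higher there (Socs3, Jak2, Batf2 and Ptpn2) and 2 lower (Usp18 and Stat2), against 10.4% and 6.38% of all genes. Socs3, a feedback inhibitor of cytokine receptors, was at 86.7 CPM in DPCP and 8.82 CPM in control (ratio 9.83). The receptor gene Ifngr1 was at 346 CPM in DPCP and 286 CPM in control (ratio 1.21, not called). In gamma-delta T cell-like cells, 5 of 16 were higher, against 12.3%, and none lower. Among the higher were Irf1 (116 CPM in DPCP and 51.0 CPM in control) and Socs1 (99.7 CPM in DPCP and 33.6 CPM in control). In monocyte-like cells, 5 of 17 were lower, against 9.28%, and Socs3 was higher.

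Of 13 other interferon-gamma targets, 9 were measured in macrophage-like cells, 3 of them higher, against 10.4% of all genes, and 2 lower, against 6.38%. The chemokine Cxcl9 was at 81.6 CPM in DPCP and 13.1 CPM in control (ratio 6.24), Cxcl10 at 63.1 CPM in DPCP and 23.9 CPM in control and Cd274 at 69.2 CPM in DPCP and 26.3 CPM in control. Lower were Tap1 (108 CPM in DPCP and 170 CPM in control) and Psmb9 (87.8 CPM in DPCP and 150 CPM in control). Cd274, which encodes the checkpoint ligand PD-L1, was called higher in all 8 classes.

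Type I interferon targets were lower in DPCP in several classes. All 11 in the matrix were called lower in macrophage-like cells, against 6.38% of all genes there, and in monocyte-like cells, against 9.28%, with median log2 ratios of -1.98 and -2.79. The monocyte-like class drew on different clusters in each condition. These targets were also lower in other classes. In conventional dendritic cell type 2-like cells 7 of 11 were called lower (7.09% of all genes). The counts were 3 of 4 in T cell-like cells (8.85%) and 5 of 10 in neutrophil-like cells (21.1%), where 1 was higher. In macrophage-like cells Ifi44 was at 11.3 CPM in DPCP and 114 CPM in control, Ifit3 at 17.1 CPM in DPCP and 93.4 CPM in control, Ifit2 at 17.5 CPM in DPCP and 84.3 CPM in control, and Usp18, which is also on the signalling list, at 17.5 CPM in DPCP and 77.9 CPM in control. In gamma-delta T cell-like cells 2 of the 4 measured were higher, against 12.3%, and none lower. Of 12 vacuole and inflammasome partners, Nlrp3 was higher in macrophage-like cells, at 48.3 CPM in DPCP and 24.99 CPM in control, and lower were Pycard, at 122 CPM in DPCP and 188 CPM in control, and Aim2, at 89.8 CPM in DPCP and 137 CPM in control.

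Across the 16 sums of class and condition, the genes whose log2 level followed the mean of the 10 most closely were Maf (Pearson r = 0.856), Ly6a (0.844), Crygn (0.839), Serinc3 (0.837) and Chic1 (0.837). Among the 10 genes, Gbp2 and Gbp5 had r = 0.722 and Irgm1 and Ifi47 had r = 0.865. These are descriptions over 16 points that share 1 library and differ in depth and cell number.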

How the data were processed

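Droplet single-cell RNA sequencing (10x 3' chemistry) was run on CD45+ skin cells of both conditions in 1 pool, with a sample tag per condition. The deposited values are UMI counts per gene and cell, made by the authors with Cell Ranger 7.0.0 per the file headers, while Cell Ranger 6.1.1, Seurat 4.0.1 and mm10 stand in the submitters' processing notes. The sources used here do not say whether intronic reads were counted. A cell's condition was read from its barcode suffix through the deposited aggregation table. No per-sample column was left unmapped (0).

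Barcodes with fewer than 200 genes or over 10% of mitochondrial UMIs were dropped, which left 12558 of 14146. Classes were gated on marker genes per 10000 UMIs. The markers were listed first, and the thresholds were chosen after seeing the data. Cells in 2 gates were left out as possible doublets and no doublet caller was used as the main step. The 10 genes, the other lists and the markers were chosen with earlier results of these data known. Cells were clustered for comparison (Leiden, resolution 1, 2000 variable genes, 30 components, 15 neighbours, without the 10 genes and the interferon lists).

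UMIs were summed per class and condition. Levels carry exact Poisson intervals, ratios exact conditional binomial intervals and shares Clopper-Pearson intervals, all at 95% and for counting error only. There was 1 sample per condition, so no test was possible and no p-value was computed. Depth limits precision most in the 120 control neutrophil-like cells. All 10 genes were named over all cells and in macrophage-like cells, other classes and lists by size of the called ratio, and further genes were named after their values were seen. Alternatives were other cell filters, gates, scalings, minimum counts, call ratios and tag purity, leaving out the highest 5% of doublet scores, and single clusters chosen after seeing the data. Python 3.11.15, numpy 2.4.6, scipy 1.17.1, scanpy 1.11.5, leidenalg 0.10.2, matplotlib 3.10.9, R 4.3.3 and edgeR 4.0.16 (TMM factors of the deposited counts) were used, and the interval and call steps were tested on simulated data.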

Additional observations from a re-analysis of the deposited data

Results flagged for a closer look

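For 5 of the genes the ratio of DPCP over control was called higher in one class and lower in another, and the difference between the classes was not tested, since each condition is 1 sample. Gbp2 had a ratio of 8.74 in neutrophil-like cells and 0.454 in conventional dendritic cell type 2-like cells. Gbp4 had a ratio of 2.23 in epidermal gamma-delta T cell-like cells and 0.388 in mature dendritic cell-like cells. Irgm1 stood at 2.71 in gamma-delta T cell-like cells and 0.434 in monocyte-like cells, and Ifi47 at 1.99 and 0.350 in the same 2 classes. Igtp had a ratio of 3.08 in neutrophil-like cells and 0.564 in monocyte-like cells. Several of these calls did not hold under other settings. Within cluster 2 the neutrophil-like Igtp ratio was 2.08 (0.692 to 10.2), and within cluster 4 the monocyte-like Igtp ratio was 0.893 (0.574 to 1.45). A stricter gate ended the Gbp2 call in conventional dendritic cell type 2-like cells, and cells with at least 80% of their own tag gave a Gbp4 log2 ratio of 0.29 in gamma-delta T cell-like cells, which ended that call.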

How the results depend on the processing

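Of 627 values recomputed under other settings, 557 stayed within the counting interval of the reported value, 66 moved outside it and 4 called values reversed. Of 37 values within single clusters, chosen after seeing the data, 11 stayed, 24 moved and 2 reversed. Counts of called genes stayed within 1.5 times in 207 of 236 cases.

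Each cell was also given the class of most gated cells in its cluster, which by construction adds large ungated clusters. It also takes cluster 5 out of the monocyte-like class. Log2 ratios then turned to 0.067 (Gbp3), 1.35 (Gbp4) and 4.02 (Iigp1) in monocyte-like cells and to -0.0235 (Gbp2) in T cell-like cells. Counts then were 1 lower in neutrophil-like, 3 higher and 1 lower in monocyte-like, 2 lower in macrophage-like, 1 higher in conventional dendritic cell type 2-like and 1 lower in mature dendritic cell-like cells. Within single clusters, neutrophil-like cells of cluster 2 had 1 gene higher, monocyte-like cells of cluster 4 had 1 higher and 2 lower with Gbp4 at 2.21, and macrophage-like cells of cluster 13 had 1 lower with Gbp5 at -0.63 (log2). That Gbp4 value rested on 35 UMIs in DPCP and 1 in control (ratio 4.64, 0.780 to 188) and was not called. TMM scaling gave 7 higher in neutrophil-like cells, and a minimum of 10 UMIs gave 1 lower there.

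A stricter gate left 0 lower in conventional dendritic cell type 2-like, 1 lower in mature dendritic cell-like and 1 higher in T cell-like cells, and gave no value for Langerhans cell-like cells. A 2-fold limit left 1 lower in macrophage-like and in conventional dendritic cell type 2-like cells, 0 higher and 1 lower in mature dendritic cell-like cells and 1 higher in T cell-like cells. A minimum of 200 UMIs left 3 higher in gamma-delta T cell-like cells, 0 higher in Langerhans cell-like and T cell-like cells and 1 lower in mature dendritic cell-like cells, fewer genes being measured. Without a cell filter 1 was lower in mature dendritic cell-like cells. The mean over cells gave 2 lower in macrophage-like and 6 higher in T cell-like cells, tag purity of 80% gave 4 higher in T cell-like cells, and leaving out S100-rich cells gave 1 higher in Langerhans cell-like cells. The cause was not tested except where named. No paired analysis was possible because each condition is 1 sample, and leaving out a replicate was not possible for the same reason.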
